A study of Homo sapiens with 2 samples.

Results

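The aldo-keto reductases and the NRF2-controlled enzymes NQO1 and TXNRD1 were compared between 2 engineered lines of HEC1A, a human cell line established from an endometrial adenocarcinoma. Members were the probe sets whose platform annotation gave exactly 1 gene symbol, equal to AKR1A1, AKR1B1, AKR1B10, AKR1C1, AKR1C2, AKR1C3, AKR7A2, AKR7A3, NQO1 or TXNRD1. Of these 10 genes, 8 had such a probe set, among 19775 genes with one in the whole series, and the expression of AKR1A1 and AKR1B1 is not analysed here. The 8 genes were read by 19 probe sets. Each gene is represented by its brightest probe set, judged by the mean over the 2 arrays, and the others are given too. The genes were chosen with their values in these data known, so all values below are descriptions.

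One array held RNA of HEC1A cells that overexpress EMP2, which encodes the tetraspan epithelial membrane protein EMP2. The other held RNA of HEC1A cells carrying a short hairpin RNA vector that knocks EMP2 down. Both lines were grown untreated in serum-containing medium, and both are engineered. Parental HEC1A cells were not analysed here, and which of the manipulations a difference goes with cannot be told apart. Whether a line is 1 clone or a pool is not given in the sources used here. With 1 array per group there is no replicate, no test and no p-value, and the number of arrays limits the precision. The targeted gene EMP2 was 6.68-fold higher in the overexpressing line on its brightest probe set (12.25 against 9.51), and the other 3 probe sets differed by 0.00 to 0.39.

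Aldo-keto reductases are NADPH-dependent enzymes that reduce aldehydes and ketones to alcohols, among them steroid hormones, prostaglandins and the reactive aldehydes of lipid peroxidation. NRF2, the product of NFE2L2, is held low by KEAP1, which hands it to the CUL3 ubiquitin ligase. Under oxidative or electrophilic stress it accumulates, pairs with small MAF proteins and binds antioxidant response elements of genes such as NQO1, TXNRD1 and several AKR genes. In the endometrium, enzymes of the AKR1C group interconvert active and inactive progestins, androgens and estrogens.

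The 6 AKR members with values all read lower in the cells overexpressing EMP2, and so did each of their 14 probe sets. The log2 differences of the 6 genes ran from -0.54 to -0.13 (overexpression minus knockdown, median -0.34). Of the 14 probe sets, 11 passed the brightness filter described below. AKR1C genes account for 9 of the 14, and those of AKR1C1 and AKR1C2 are not separate measurements. Whether the probe sets of AKR7A2 and AKR7A3 are separate measurements was not tested. The share of all probe sets that read lower was not counted. NQO1 differed the other way on each of its 3 probe sets, and TXNRD1 read nearly the same in both lines. None of the 8 members was 1.5-fold apart, against 9.12% of the 12061 genes past the brightness filter, of which 4.97% lay on the higher side and 4.15% on the lower side. That filter kept genes reading at least 6.40, the median of all single-symbol probe sets, on either array, and each of the 8 members passed. Lower by any amount were 7 of the 8 members and higher was 1, against 49.7% and 45.6% of all genes past the filter. Their median difference was -0.25, and that of all genes past the filter was 0.00.

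The promoters of the 3 AKR1C members are shown as a description of the genes. AKR1C1 and AKR1C2 are near-identical copies, and array probes may not tell such copies apart. Probes read transcripts, and these stretches lie before the start site, so they do not show which copy a probe set reads. Probe sequences were not compared. Each stretch is the 250 bases before the RefSeq start site in GRCh38.p14, printed 5′ to 3′ on the gene's strand. AKR1C1 lies at chr10:4963165-4963414 on the plus strand, AKR1C2 at chr10:5003858-5004107 on the minus strand and AKR1C3 at chr10:5048531-5048780 on the plus strand. Capitals mark bases of AKR1C2 and AKR1C3 that differ from AKR1C1 within the overlap of a pairwise alignment. Ends beyond the overlap are in small letters, and AKR1C1 bases missing from the other gene carry no mark.
AKR1C1: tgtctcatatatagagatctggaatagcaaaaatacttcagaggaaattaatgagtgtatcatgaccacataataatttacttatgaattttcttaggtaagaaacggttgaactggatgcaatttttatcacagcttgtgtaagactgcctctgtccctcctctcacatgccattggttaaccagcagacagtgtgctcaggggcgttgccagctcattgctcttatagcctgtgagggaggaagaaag
AKR1C2: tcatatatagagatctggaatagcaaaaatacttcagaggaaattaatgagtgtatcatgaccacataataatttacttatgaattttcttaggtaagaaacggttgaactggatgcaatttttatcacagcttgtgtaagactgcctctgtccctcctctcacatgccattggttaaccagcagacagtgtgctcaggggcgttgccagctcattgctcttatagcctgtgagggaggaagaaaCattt
AKR1C3: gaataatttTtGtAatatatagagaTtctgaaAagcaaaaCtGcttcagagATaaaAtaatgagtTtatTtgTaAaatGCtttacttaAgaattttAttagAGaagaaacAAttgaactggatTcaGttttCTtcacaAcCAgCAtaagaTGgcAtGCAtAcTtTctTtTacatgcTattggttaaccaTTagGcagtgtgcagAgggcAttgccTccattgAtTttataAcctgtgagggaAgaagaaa
AKR1C2 matched AKR1C1 at 245 of 246 aligned positions, and AKR1C3 matched AKR1C1 at 189 of 252. The 1 marked base of AKR1C2 is the last of the overlap, where the stretches were cut. Read past the cut, both genes continue alike after bases that AKR1C2 lacks, so the mark does not show a changed base. AKR1C3 has a second RefSeq start site, whose stretch matched AKR1C1 at 187 of 251 positions.

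The 3 AKR1C genes gave the same picture. AKR1C1, which inactivates progesterone, read 13.64 in overexpression and 13.97 in knockdown on its brightest probe set. It was thus 1.26-fold lower in overexpression, a log2 difference of -0.33. A second AKR1C1 probe set read 13.12 against 13.52, a difference of -0.41 (here and below, overexpression is named first). Both are of the kind that Affymetrix marks _x_at, whose probes may also bind other transcripts.

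The other 3 AKR1C1 probe sets were dim and differed less. The first of them read 6.78 against 6.87, a difference of -0.089 just past the filter. Another read 5.67 against 5.87, and the last 5.32 against 5.35. The brightest of 27 Bacillus subtilis control probe sets read 5.85, so these last probe sets were at or near background. The 1.26-fold difference of AKR1C1 therefore rests on its _x_at probe sets.

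AKR1C2, which reduces dihydrotestosterone to a weak androgen, read 12.76 in overexpression and 13.17 in knockdown. This is a log2 difference of -0.41, or 1.33-fold lower. Its second _x_at probe set read 12.17 against 12.60, a difference of -0.43. The third, not of that kind, read 6.01 against 6.17, a difference of -0.16 below the filter. As the genes are near-identical copies, the AKR1C1 and AKR1C2 values cannot be taken as separate measurements.

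AKR1C3, which makes testosterone from androstenedione and reduces prostaglandins to the F series, has 1 probe set, and its name carries no mark of cross-binding. Its values were 12.81 with EMP2 overexpressed and 13.17 with EMP2 knocked down, 1.28-fold lower at a difference of -0.36. The 5 bright AKR1C probe sets thus differed by -0.33 to -0.43, in the same direction on each.

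**Figure D1:**
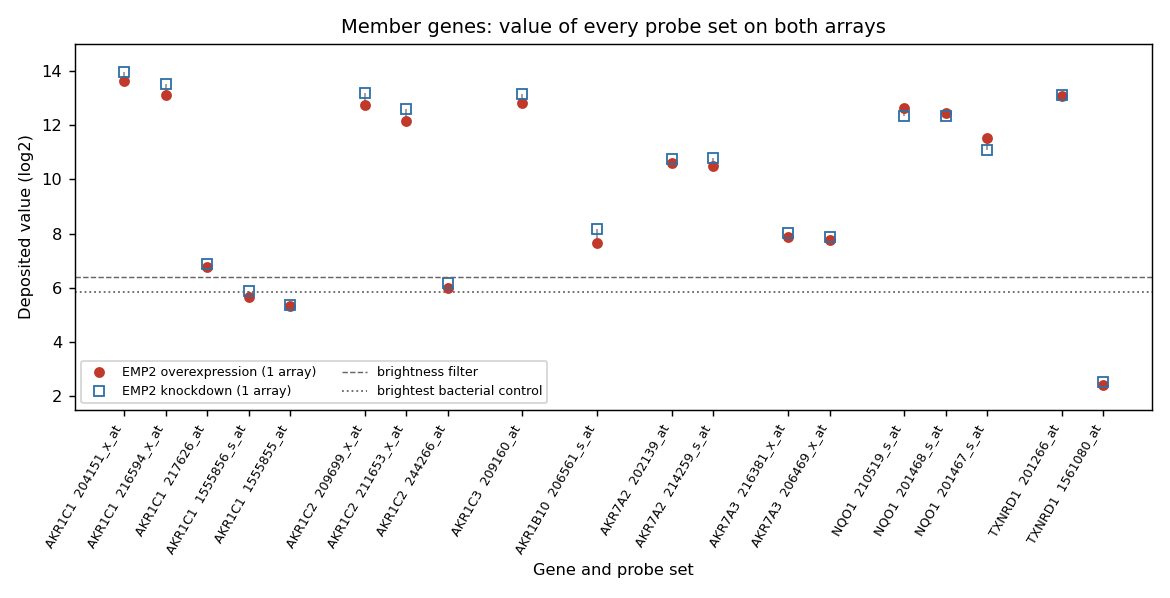
Deposited log2 value (vertical axis) of each of the 19 probe sets of the 8 measured members, grouped by gene, with 1 filled circle for the EMP2 overexpression array and 1 open square for the knockdown array. The squares lie above the circles for each AKR probe set and below them for the 3 NQO1 probe sets; the dashed line is the brightness filter (6.40) and the dotted line the brightest bacterial control (5.85).

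AKR1B10, a reductase of retinaldehyde and lipid aldehydes that is often raised in carcinomas, had the largest difference among the members. On its only probe set it read 7.64 against 8.18, 1.46-fold lower at a difference of -0.54. Of the genes past the filter, 4.68% had a lower difference than AKR1B10. That share is over genes of any brightness, and 70.0% of them were brighter than AKR1B10. Dim genes spread more than bright ones, and AKR1B10 was not ranked among genes of like brightness.

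The AKR7A enzymes, which detoxify dialdehydes such as those formed from aflatoxin, had the smallest differences among the 6 AKR members on the brightest probe sets. AKR7A2, which also reduces succinic semialdehyde, read 10.60 against 10.77, a difference of -0.17, and its second probe set read 10.51 against 10.81, a difference of -0.30. AKR7A3 read 7.89 against 8.03 on one _x_at probe set and 7.75 against 7.88 on the other, each 0.13 lower. As _x_at probe sets may also bind other transcripts, whether these read AKR7A3 alone was not tested. Differences below that of AKR7A2 were seen in 23.2% of all genes past the filter, and below that of AKR7A3 in 27.7%, so both lay in the broad middle of the genes. With all probe sets averaged, AKR7A2 differed by -0.23 and AKR1C1 by -0.21, so this order depends on the probe sets used.

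NQO1, the quinone reductase most used as a readout of NRF2, read 12.64 in overexpression and 12.33 in knockdown. This is a difference of 0.31, or 1.24-fold higher. Its second probe set read 12.44 against 12.32, a difference of 0.12. The third read 11.53 against 11.09, a difference of 0.44. The probe sets of NQO1 thus shared a direction and differed in size. Of all genes past the filter, 87.4% had a lower difference than NQO1.

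TXNRD1, the selenoprotein that reduces thioredoxin, read 13.08 against 13.11, a difference of -0.04. Its second probe set read 2.41 against 2.53, far below the bacterial controls, and carries no information on the gene. Spiked-in hybridization controls, 18 probe sets for bacterial and phage transcripts, differed by up to 0.10, which is more than TXNRD1 did. As these controls are not RNA of the cells, they do not show how far a repeat of either line would differ.

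The core of the antioxidant response element, written TGACNNNGC and searched on both strands, was looked for in windows from 250 bases before to 50 bases after each start site. It was found in 4 of 13 windows, which belong to 2 of the 9 members with a RefSeq promoter entry, against 13.3% of 35116 windows of all genes. Both start sites of TXNRD1 and both overlapping windows of AKR7A2 held it, while no match lay in the windows of AKR1A1, AKR1B1, AKR7A3, NQO1 or the AKR1C members. Sequence farther upstream was not searched. AKR1B10 had no entry. In the stretches shown, the matches that lie whole within them are in capitals. That of TXNRD1 covers chr12:104215529-104215778 on the plus strand and that of AKR7A2 covers chr1:19312145-19312394 on the minus strand, each with 250 bases.
TXNRD1: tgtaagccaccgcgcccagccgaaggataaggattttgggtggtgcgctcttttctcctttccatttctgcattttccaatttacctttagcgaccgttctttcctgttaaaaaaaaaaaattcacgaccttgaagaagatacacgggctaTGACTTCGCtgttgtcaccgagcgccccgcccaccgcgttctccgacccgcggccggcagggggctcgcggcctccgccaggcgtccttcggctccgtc
AKR7A2: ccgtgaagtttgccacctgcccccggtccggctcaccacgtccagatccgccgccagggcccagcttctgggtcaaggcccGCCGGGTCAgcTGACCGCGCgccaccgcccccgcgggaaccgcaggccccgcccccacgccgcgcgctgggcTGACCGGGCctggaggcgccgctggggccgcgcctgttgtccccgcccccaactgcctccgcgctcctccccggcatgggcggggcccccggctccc
The match of TXNRD1 begins 99 bases before the start site, and a further match, on the opposite strand, begins 8 bases before it and runs past the end of the stretch. The 3 matches of AKR7A2 begin 169, 158 and 97 bases before the start site and do not overlap. A match is a run of letters and was not tested for binding.

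Bright genes spread less than dim ones, which matters for AKR1C1, AKR1C2, AKR1C3, NQO1 and TXNRD1. Among the 798 genes past the filter with a mean of at least 12, a level chosen after the values were seen, the 5th percentile of the differences was -0.24 and the 95th was 0.35, against -0.52 and 0.58 over all genes past the filter. AKR1C1, AKR1C2 and AKR1C3 lay below the 5th percentile. NQO1 and TXNRD1 lay between the percentiles. This describes the 2 arrays and does not say how far a repeat of either line would differ.

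**Figure D2:**
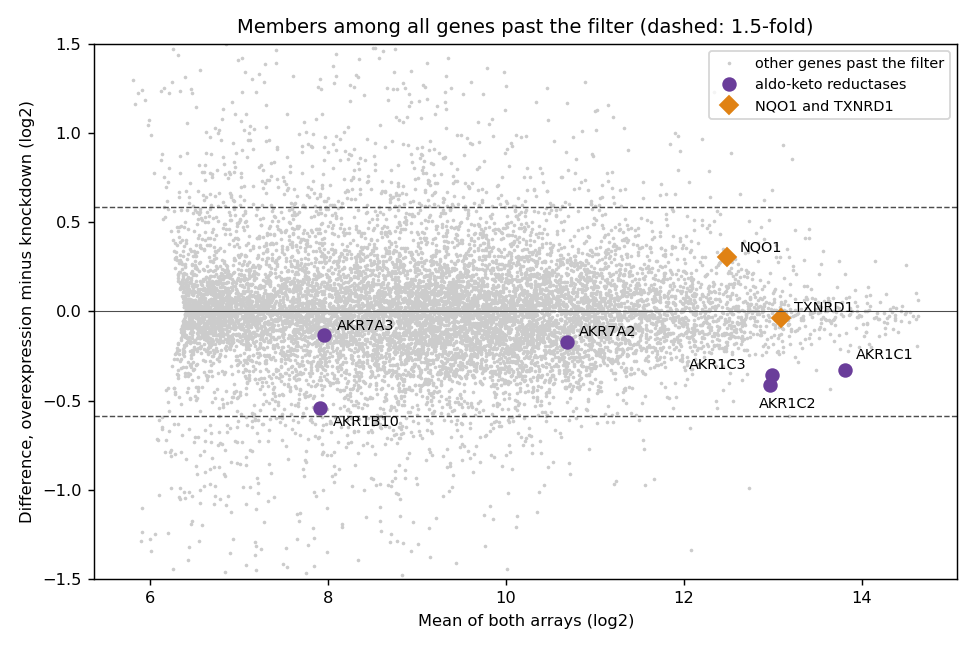
Difference on the log2 scale (overexpression minus knockdown, vertical axis) against the mean of both arrays (log2, horizontal axis), 1 point per gene past the filter, with the 157 genes beyond 1.5 log2 units out of the frame. The 6 AKR members (circles) lie below 0, NQO1 above it and TXNRD1 at about 0 (diamonds), all between the dashed lines at 1.5-fold.

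Of 8 markers of endometrial epithelium, each was above the bacterial controls, with PAX8 at 11.26 and 11.33. KRT8 and KRT19 were at least 1.5-fold lower and CDH1 at least 1.5-fold higher in overexpression, and what part the state of the epithelium has in the AKR values was not tested. Most markers of other cells were dim, with medians of 5.88 and 5.93 for endothelium, 5.17 and 5.17 for leukocytes, 5.91 and 5.89 for fibroblasts and 5.42 and 5.49 for hepatocytes, in overexpression and knockdown. The hepatocyte genes ALB, APOB and AKR1D1 and the leukocyte genes PTPRC, CD14 and LYZ were not above the bacterial controls on either array. The leukocyte gene CD3E (6.24 against 6.34) was above them and below the filter. The endothelial genes PECAM1 (6.82 against 6.62) and TEK (6.37 against 6.44) passed the filter, TEK on the knockdown array only. Of the hepatocyte list, SERPINA1 (7.82 against 8.21) and TTR (6.87 against 7.07) passed the filter and were lower in overexpression, by differences of -0.39 and -0.19, and their part in the AKR values was not tested. The fibroblast marker COL1A1 read 8.51 against 8.48.

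The remaining aldo-keto reductases were mostly dim. Of 11 listed, 6 were measured and 1 passed the filter, KCNAB2, a potassium channel beta subunit with the aldo-keto reductase fold, at 6.95 on both arrays. AKR1C4, the liver form of the AKR1C group, read 5.81 in overexpression and 6.02 in knockdown, and AKR1E2 read 6.05 against 6.09. AKR1D1, KCNAB1 and KCNAB3 were not above the bacterial controls. With only KCNAB2 past the filter, no direction can be read for these further family members. Below the filter, AKR1C4, AKR1D1 and AKR1E2 differed by -0.22, -0.10 and -0.03, and KCNAB1 and KCNAB3 by 0.03 and 0.22.

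Genes that set NRF2 activity were not 1.5-fold apart. Of 13 measured, all past the filter, 6 were above 0 and 7 below, against 45.6% and 49.7% of all genes past the filter. The median was -0.02. NFE2L2, the factor itself, read 11.54 with EMP2 overexpressed and 11.84 with EMP2 knocked down (difference -0.30), and KEAP1, its inhibitor, read 11.15 against 11.14. The kinase GSK3B, which marks NRF2 for breakdown, differed by -0.45 and the small MAF protein MAFF by -0.40. BACH1, a repressor that competes for the same elements, read 10.65 against 10.26, a difference of 0.38.

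Enzymes of glutathione synthesis and use had a median of -0.16, and none past the filter was 1.5-fold apart. Of 10 past the filter, 7 were below 0, against 49.7% of all genes past the filter. The members with the largest differences were the catalytic and modifier subunits of glutamate-cysteine ligase, glutathione reductase and the cystine transporter. GCLC read 10.74 in overexpression and 11.14 in knockdown (difference -0.40), GSR 10.86 against 11.17 (-0.31), SLC7A11 9.62 against 9.90 (-0.28) and GCLM 11.78 against 12.04 (-0.26). These 4 were below 0. GSS, which completes glutathione, was 0.24 higher.

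The thioredoxin system read nearly alike in both lines, as TXNRD1 did. Of its 10 genes past the filter, 5 were above and 5 below 0, against 45.6% and 49.7% of all genes past the filter. The median was 0.00 and the range ran from -0.18 to 0.12. SRXN1, which repairs oxidized peroxiredoxins, was 0.18 lower, the peroxiredoxin PRDX1 was 0.12 higher, and the mitochondrial reductase TXNRD2 and PRDX3 differed by -0.06 and -0.05.

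Of 6 heme and iron genes past the filter, 5 were above 0, against 45.6% of all genes past the filter. The list's median was 0.16 (0.07 with no filter). The iron store subunit FTL differed by -0.06, BLVRB by 0.06 and the ferrochelatase FECH by 0.08, within the 0.10 of the hybridization controls. BLVRB and FECH are among the 5 above 0. The heme transporter SLC48A1 read 11.26 in overexpression and 10.58 in knockdown (difference 0.68). Each of the 3 SLC48A1 probe sets that passed the filter exceeded 1.5-fold. HMOX1, the inducible heme oxygenase and a classic NRF2 and BACH1 target, read 9.29 against 8.92, a difference of 0.38. HMOX2 differed by 0.25. The NADPH-producing enzymes had a median of 0.09, with 5 of 6 above 0, beside the same 45.6% of all genes. PGLS and PGD of the pentose phosphate pathway were 0.34 and 0.20 higher, ME1 was 0.12 higher, and TKT differed by -0.10.

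Conjugating enzymes and exporters had no common direction, with a median of 0.01. Of 19 past the filter, 10 were above 0, against 45.6% of all genes past the filter. The transporter ABCB6 was lower by 0.66 (6.11 against 6.77) and was the only member of this list 1.5-fold apart. ABCB6 passed the filter on the knockdown array only. The exporter ABCC4 differed by -0.49, and the glutathione transferases GSTZ1 and GSTA4 by 0.44 and 0.37. Among 12 other NRF2 targets past the filter, the aldehyde dehydrogenase ALDH3A1 was 2.68-fold lower (6.37 against 7.79). ALDH3A1 passed the filter on the knockdown array only. The rest were under 1.5-fold on their brightest probe sets. PTGR1, a reductase of prostaglandins and leukotrienes, was 0.34 higher, and CYP4F11 and AIFM2 differed by -0.20 and -0.19. Of 3 probe sets of the taurine transporter SLC6A6, 1 exceeded 1.5-fold on the higher side, though its brightest read the same on both arrays.

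Over these 6 lists of NRF2 targets together, 63 of 77 measured genes passed the filter, with a median of 0.00. Above 0 lay 30 and below it 30, against 45.6% and 49.7% of all genes past the filter. SLC48A1 alone exceeded 1.5-fold on the higher side, and 2 did on the lower side (ABCB6 and ALDH3A1). Both of the latter passed the filter on the knockdown array only, and with the filter at the 75th percentile 0 were left on the lower side. The shares past 1.5-fold under the main filter are no larger than the 4.97% and 4.15% of all genes. The letters TGACNNNGC lay in 21 of 81 promoter windows of 62 of the listed genes (25.9%), which is given as a description.

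**Figure D3:**
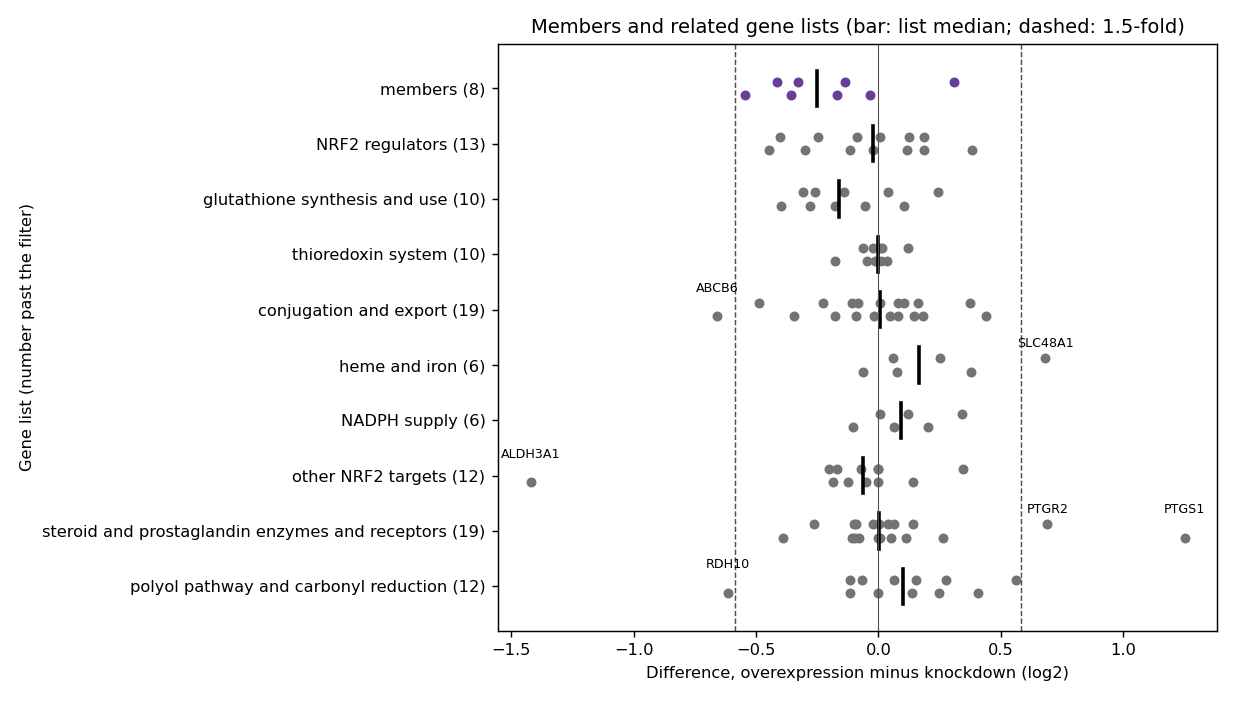
Differences on the log2 scale (overexpression minus knockdown, horizontal axis) of the members and of 9 related lists, 1 point per gene past the filter, with a bar at each list's median and dashed lines at 1.5-fold. The median is -0.25 for the members, -0.16 for glutathione genes, 0.16 for heme and iron genes and 0.00 for the thioredoxin system.

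Steroid and prostaglandin enzymes and receptors gave 2 differences past 1.5-fold among 19 past the filter, against 9.12% of all genes past the filter. Both were on the higher side, where 4.97% of all genes past the filter lay. Of these steroid and prostaglandin genes, the cyclooxygenase PTGS1, which makes the precursor that AKR1C3 can act on, read 11.09 in overexpression and 9.84 in knockdown. That is a difference of 1.25, and 4 of 4 PTGS1 probe sets exceeded 1.5-fold in this direction. The prostaglandin reductase PTGR2 was 0.69 higher on its only probe set past the filter (7.61 against 6.92). HSD17B1, which activates estrone, differed by -0.39 and HSD17B7 by 0.27. The list's median was 0.00. The progesterone receptor PGR was not above the bacterial controls on either array (4.01 and 3.93), and ESR1, the estrogen receptor alpha gene, read 6.49 on both.

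Other carbonyl-reducing enzymes had a median of 0.10, with 7 of 12 past the filter above 0. The retinol dehydrogenase RDH10 was lower by 0.61, on 1 of its 3 probe sets past the filter. DHRS2 and DHRS3, short-chain reductases, differed by 0.56 and 0.41, and the glyoxalase GLO1 by 0.28. The list had no common direction, as RDH13 and the glyoxalase HAGH differed by -0.12 and -0.11 and DHRS9 read the same on both arrays.

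The AKR1C genes lie side by side on chromosome 10, and the measured genes around them were set beside them in RefSeq order, 8 on each side. Of these neighbours 5 passed the filter, and 5 of 5 were lower in overexpression, with a median of -0.24, where 49.7% of all genes past the filter were lower. KLF6, a zinc finger factor, read 11.17 against 11.59, a difference of -0.42. The tubulin-like gene TUBAL3 read 5.78 against 7.10 and was at least 2.38-fold lower, taken against the brightest bacterial control. TUBAL3 passed the filter on the knockdown array only. NET1 differed by -0.24, TASOR2 by -0.24 and ASB13 by -0.08. What the position has to do with the AKR1C values was not tested. Around AKR1B10 on chromosome 7, 8 of 11 neighbours past the filter were below 0, with a median of -0.07. Around AKR7A2 and AKR7A3 on chromosome 1, 5 of 13 were below 0, with a median of 0.03.

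**Figure D4:**
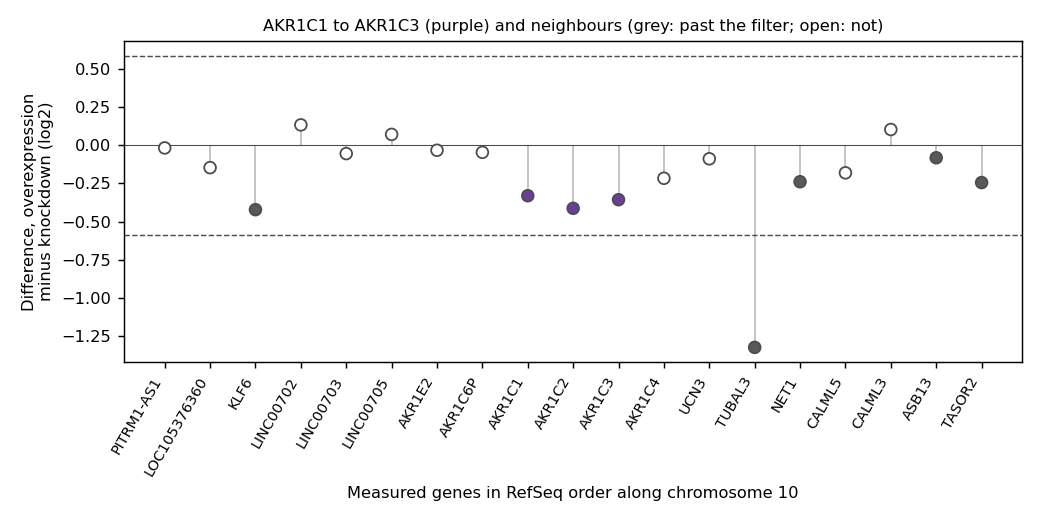
Difference on the log2 scale (overexpression minus knockdown, vertical axis) of AKR1C1, AKR1C2, AKR1C3 (purple) and the 8 measured genes on each side in RefSeq order, filled grey where past the brightness filter and open where not. The AKR1C genes and the 5 neighbours past the filter lie below 0, with TUBAL3 lowest.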

How the data were processed

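RNA of 2 HEC1A lines was hybridized to 1 Affymetrix array each. The values are log2 summaries of probe sets, with both arrays at nearly the same distribution as deposited. The base was taken from their range (2.01 to 14.72), as no source states it. Partek 6.6 is named in the submitters' processing notes. How background, normalization and summarization were done is not stated. Over all probe sets the medians were 6.02 and 6.01, and the sorted values differed by at most 0.05, so any shift shared by most genes was no longer visible.

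Values were used as deposited. The annotation gave 1 symbol to 41097 of 54675 probe sets, several to 1801 and none to 11777. The last 2 kinds were left out of gene values. Each difference is overexpression minus knockdown, and members and lists were counted at 1.5-fold. Genes named are the members, EMP2, NFE2L2, KEAP1, up to 4 genes with the largest absolute differences in each list, and each list gene 1.5-fold apart; others, and the chromosomal neighbours, were chosen after their values were seen. The members and lists were chosen with earlier results of these data known. Promoter sequences are RefSeq's. Python 3.11.15, pandas 2.3.3 and NumPy 2.4.6 were used, and the code was tested on simulated data. Alternatives were other ways to combine probe sets, scalings, filters, a floor at the bacterial controls and a 2-fold threshold.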

Additional observations from a re-analysis of the deposited data

Results flagged for a closer look

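One probe set is annotated to both AKR1C1 and AKR1C2 and therefore entered no gene value. It was looked at because it lies outside the comparisons of single-symbol probe sets and was above the bacterial controls (5.85) on both arrays. Its values were 6.85 with EMP2 overexpressed and 7.87 with EMP2 knocked down, 2.03-fold lower at a difference of -1.02. This is in the direction of the AKR1C1, AKR1C2 and AKR1C3 probe sets and is larger on the log2 scale than the difference of any of the 19 member probe sets.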

How the results depend on the processing

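No paired analysis was possible because each group has 1 array. Under the alternatives run, 37 of 37 member differences kept their sign and none of the 8 members reached 1.5-fold. Much of this was fixed beforehand. The floor at the bacterial controls changed no member value, and genes with 1 probe set could not change on averaging. The scalings acted on arrays whose sorted values already differed by at most 0.05. A gene short of 1.5-fold is also short of 2-fold. The size of the AKR1C1 and AKR1C2 differences depended on the probe sets used. With all probe sets averaged AKR1C1 differed by -0.21. With probe sets ending in plain _at, which leaves out the bright _x_at ones, AKR1C1 differed by -0.089 and AKR1C2 by -0.16, while AKR1C3 stayed at -0.36; AKR1B10, AKR7A3 and NQO1 have no such probe set. Over all genes, averaging gave 265 at least 1.5-fold lower in place of 500 (400 higher in place of 600), and a filter at the 75th percentile gave 366 higher and 268 lower. Of the NRF2 targets, 1 was at least 1.5-fold lower with probe sets averaged and 0 with the stricter filter, in place of 2. The stricter filter tests fewer genes; for averaging the cause was not tested. Of 60 list medians recomputed, 1 moved by more than the controls' 0.10, that of the NADPH genes to 0.20 with plain _at probe sets.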
